A study of Mus musculus with 17 samples.

Results

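Tumour masses (TM) were compared with tumour-adjacent tubules (TAT) dissected from the testes of the same 3 *Inha* KO animals. The libraries were chosen by their region label, which gave 10 of the 17 RNAseq libraries of the series, namely 6 TM and 4 TAT libraries. KO animals 79781 and 79853 each gave 1 TM and 1 TAT library. KO animal 79813 gave 1 TM and 1 TAT library from testis 1, and 3 TM libraries of separate tumours with 1 TAT library from testis 2. All 10 libraries have the *Inha* KO genotype on a C57/Bl6 background, and the part of the gene that the allele lacks was not known here. The sample labels give an age of postnatal day 48 to 52 and the growth protocol one of P53 to P55. The pieces were microdissected, TM by its rich vessels and TAT as tubules with interstitium at the tumour border, so each is a mixture of cell types. Distant tissue of the same animals (N, 4 libraries) shared the fit, and 3 WT libraries were used to check the targeted gene and in 1 alternative fit of all 17 libraries.

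Inhibin, a dimer of the alpha subunit encoded by *Inha* and an activin beta subunit, restrains FSH release and opposes activin signalling. Activins are dimers of beta subunits that act through SMAD2 and SMAD3, and mice without inhibin develop gonadal stromal tumours with Sertoli or granulosa cell features. In the normal tubule, Sertoli cells nurse germ cells through meiosis and sperm formation, and the Leydig cells, vessels and immune cells lie outside.

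*Inha* itself, the targeted gene (chromosome 1 of GRCm38, 75507077 to 75510366), had 3.28 to 5.93 CPM in the TM libraries and 1.26 to 2.23 CPM in the TAT libraries, against 56.1 to 60.2 CPM in WT, here scaled by the library total. CPM are counts scaled to a common library size. Total counts were 9139835 to 18995984 in TM libraries and 17413667 to 25065616 in TAT libraries. Pieces of 1 animal and region were summed, which left n = 3 animals per region, and all other levels are CPM scaled by TMM (trimmed mean of M values). In a bulk sample, fewer cells of a type and less RNA per cell cannot be told apart.

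Meiotic and haploid germ cell genes were lower in TM than in TAT, and part of the red blood cell, granulosa cell, ribosomal protein and matrix protease genes were higher. Among 19293 genes tested, 1476 (7.65%) were higher and 3411 (17.7%) lower in TM by more than 1.5-fold with an adjusted p under 0.05. The test was edgeR's quasi-likelihood test with the animal as a block. The median log2 fold change was 1.26 over the genes called higher, -2.20 over those called lower and -0.157 over all genes tested. A fold above 4 was reached by 251 of the called genes that were higher and 1949 of those that were lower. TM and TAT animals did not overlap for 1419 of the 1476 and 3294 of the 3411 called genes, while 46.6% of all genes tested did not overlap. The smallest adjusted p was 0.0164 and is shared by many genes. Without animal 79781 no gene was called (edgeR, 0 higher and 0 lower), with 4394 genes at an unadjusted p under 0.05 and a smallest adjusted p of 0.215. Without animal 79813, 586 genes (3.09% of those tested) were higher and 3350 (17.7%) lower, and without animal 79853, 2405 (11.9%) were higher and 3218 (15.9%) lower. Counts without 1 of these animals stand in parentheses beside the lists that they changed most, and without animal 79781 the count of every list was 0. The shares of all genes given here are the background for every list count. Some genes are in more than 1 list, so the counts of different lists are not independent.

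**Figure D1:**
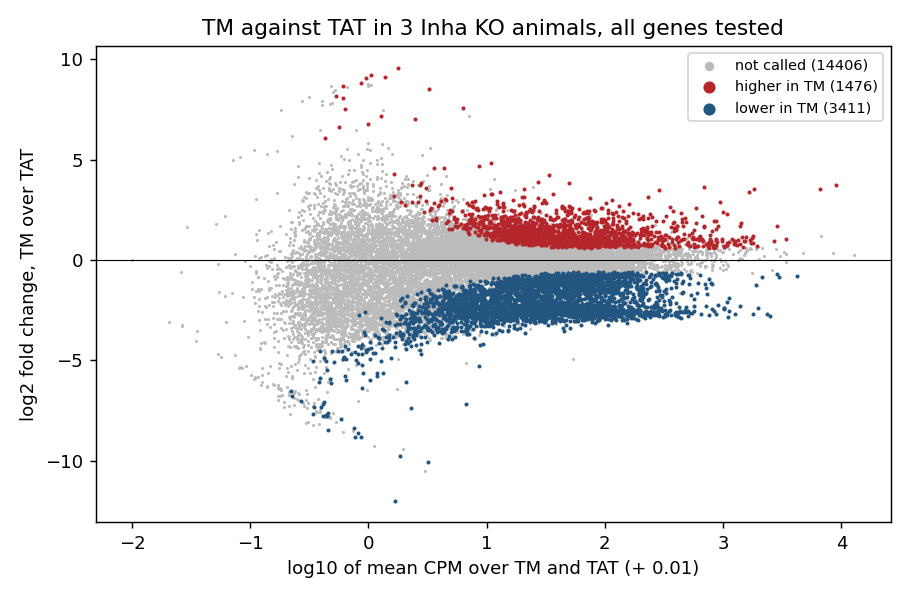
Each point is 1 gene, placed by the log10 of its mean CPM over TM and TAT and by its log2 fold change of TM over TAT. The 1476 genes called higher in TM are red, the 3411 called lower are blue and the others are grey.

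The TAT libraries were also set against N in the same fit, where 0 of 19293 genes (0.00%) were called by edgeR. In that comparison 4517 genes had an unadjusted p under 0.05, the smallest adjusted p was 0.0661, and DESeq2 called 3559. TM against TAT and TAT against N share the TAT libraries, so their fold changes are not independent.

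TM was chosen by its vessels, so blood and vessel genes are in part what defined the pieces. The 4 haemoglobin genes, among the 12 named for the largest log2 fold changes, made up 1.59 to 5.53% of all counts in TM libraries and 0.171 to 0.358% in TAT libraries. *Hbb-bs*, an adult beta globin, had 13300, 9730 and 27300 CPM in TM of animals 79781, 79813 and 79853, against 1260, 822 and 1580 CPM in TAT. Every TM animal was above every TAT animal. Its log2 fold change was 3.72 (SE 0.33), and those of *Hbb-bt*, *Hba-a1* and *Hba-a2* were 3.62, 3.56 and 3.53. These genes are near-identical copies within each pair, so their counts may be split between copies. Of the 10 tested genes of the red blood cell list, 6 were higher and none lower, with a median log2 fold change of 2.59. *Plvap*, which forms the diaphragms of fenestrated endothelium, had 13.4, 11.3 and 25.1 CPM in TM and 1.32, 1.51 and 7.38 CPM in TAT (log2 fold change 2.6, SE 0.51). It was the only 1 of 29 tested genes of the vessel endothelium list that was called, and the median of that list was 0.51.

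Genes of ovarian granulosa cells, the supporting cells of the follicle, were higher in TM for 15 of 23 tested members, with 1 lower and a median log2 fold change of 2.25. *Inhba*, which encodes the activin beta A subunit, had 1440, 1120 and 2550 CPM in TM, against 333, 71.8 and 964 CPM in TAT. The lowest TM animal lay only a little above the highest TAT animal, since TAT of animal 79853 was high, and the log2 fold change was 2.31 (SE 0.53, adjusted p 0.0202). *Cyp19a1*, the aromatase that makes oestrogen, had 145, 84.8 and 287 CPM in TM and 22.9, 5.53 and 97.1 CPM in TAT, and here TM of animal 79813 lay below TAT of animal 79853. In a fit without the animal block *Inhba* and *Cyp19a1* were not called (adjusted p 0.0889 and 0.103). *Nr5a2*, a nuclear receptor of granulosa cells, had a log2 fold change of 2.33 and *Hsd17b1*, which makes oestradiol from oestrone, one of 2.15. *Amhr2*, the receptor of anti-Müllerian hormone, went against its list, with 75.5, 109 and 52.5 CPM in TM and 173, 178 and 167 CPM in TAT.

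The activin system showed higher ligand and antagonist transcripts. Of 16 tested genes of the pathway, 4 were higher and none lower in TM, beside 7.65% and 17.7% of all genes tested. The higher genes were *Inhba*, *Inhbb*, *Fst* and *Smad4*. *Inhbb*, the beta B subunit, had a log2 fold change of 2.11 (SE 0.42) and *Fst*, which encodes the activin-binding protein follistatin, one of 2.47 (SE 0.47). Without the block *Inhbb* was not called (adjusted p 0.0758). *Smad4*, the shared partner of activated SMADs, had 27.3, 33.2 and 35.4 CPM in TM and 17, 12.5 and 19.2 CPM in TAT, and was not called without animal 79813 (adjusted p 0.129). *Inha*, a member of the same list, had a log2 fold change of 1.47 that was not called (adjusted p 0.138).

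Genes known to be induced by TGF beta or activin were higher in TM for 10 of 20 tested members, with none lower and a median of 1.19 (5 higher without animal 79813 and 12 without animal 79853). *Id3*, an inhibitor of basic helix-loop-helix factors, had 296, 216 and 480 CPM in TM against 75.4, 34.5 and 151 CPM in TAT (log2 fold change 2.04, SE 0.36). Which ligand, if any, lies behind the level of *Id3* or of the other members was not tested. *Tgif1*, a repressor of SMAD-driven transcription, had a log2 fold change of 1.16. In the BMP pathway 9 of 23 genes were higher and 2 lower (5 higher without animal 79813 and 10 without animal 79853). *Bmpr2*, the type II receptor, had 85.9, 93.1 and 241 CPM in TM and 23, 11.7 and 43.4 CPM in TAT (log2 fold change 2.45, SE 0.26). The lower members were *Id4*, which marks spermatogonial stem cells, and *Gdf9*, known as an oocyte growth factor, with log2 fold changes of -2.0 and -3.15. *Gdf9* was not called without animal 79853 (adjusted p 0.0590).

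Steroid synthesis enzymes were higher for 10 of 22 tested genes, with none lower and a median log2 fold change of 1.07 (4 higher without animal 79813 and 13 without animal 79853). *Hsd3b1*, which makes progesterone and androstenedione from their precursors, had 2360, 1910 and 2180 CPM in TM and 766, 177 and 1080 CPM in TAT (log2 fold change 1.86, SE 0.49). *Akr1cl*, an aldo-keto reductase, had 1330, 1230 and 1320 CPM in TM and 444, 148 and 505 CPM in TAT. The TM animals were close to each other for both genes while the TAT animals were spread. *Cyp11a1*, which starts steroid synthesis from cholesterol, was not called (log2 fold change 1.07, adjusted p 0.0638), though it was called without animal 79853 (1.57, adjusted p 0.0211). Of 25 tested Leydig cell genes, 4 were higher and 1 lower (1 higher without animal 79813 and 11 without animal 79853). Among all genes tested 7.65% were higher and 17.7% lower (3.09% higher without animal 79813 and 11.9% without animal 79853). *Hsd3b1* and *Cyp11a1*, given above, are also in the Leydig cell list. *Insl3*, the hormone that defines the Leydig cell, had 109, 165 and 21.8 CPM in TM against 191, 304 and 167 CPM in TAT, and its log2 fold change of -1.36 was not called (adjusted p 0.0890). *Inadl*, a polarity protein found in many epithelia, was the lower member. Of 26 genes of cholesterol synthesis and uptake, 4 were higher and 2 lower, with a median of 0.52 (1 higher without animal 79813 and 9 without animal 79853). *Soat1*, which esterifies cholesterol, and *Msmo1*, an enzyme of the sterol route, were higher by log2 fold changes of 1.26 and 1.02, and *Idi1* and *Fdft1*, enzymes of the same route, had log2 fold changes of -1.17 and -0.92. *Msmo1* was not called without animal 79813 (adjusted p 0.0624).

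Sertoli cell genes were called in shares near those of all genes tested. Of 34 tested members, 3 were higher and 6 lower, beside 7.65% and 17.7% of all genes (2 higher and 10 lower without animal 79853), and the median log2 fold change was -1.11. The higher genes included *Inhbb* and *Gdnf*, the factor that sustains spermatogonial stem cells. *Gdnf* had 13.1, 13.5 and 57.0 CPM in TM and 5.28, 1.86 and 11.9 CPM in TAT, and its log2 fold change was 2.04, and 2.07 without animal 79853, where it was not called (adjusted p 0.0659). The lower genes included *Rhox5*, an androgen-regulated homeobox gene, and *Cst12*, a cystatin, at log2 fold changes of -1.98 and -2.02. *Sox9*, the factor that specifies Sertoli cells, had 86.1, 101 and 10.7 CPM in TM and 158, 109 and 96.4 CPM in TAT, and was not called (log2 fold change -1.09, adjusted p 0.221). In animal 79813 it was below the TAT piece of the same testis in 3 of 4 tumours (68.8 against 96.1 CPM in testis 1, 74.7 and 74.2 against 122.1 CPM in testis 2) and above it in the other, at 149.9 CPM. *Cldn11*, the main claudin of the blood-testis barrier, had 63.5, 88.4 and 0.706 CPM in TM and 159, 130 and 105 CPM in TAT. It was not called (log2 fold change -1.69, adjusted p 0.294), though it was without animal 79853 (-0.83, adjusted p 0.0400). Among barrier junction genes, *Gja1*, which encodes connexin 43, had 1010, 830 and 1390 CPM in TM against 278, 88.2 and 418 CPM in TAT, while *Pvrl3*, a nectin of the spermatid junction, had a log2 fold change of -1.86.

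**Figure D2:**
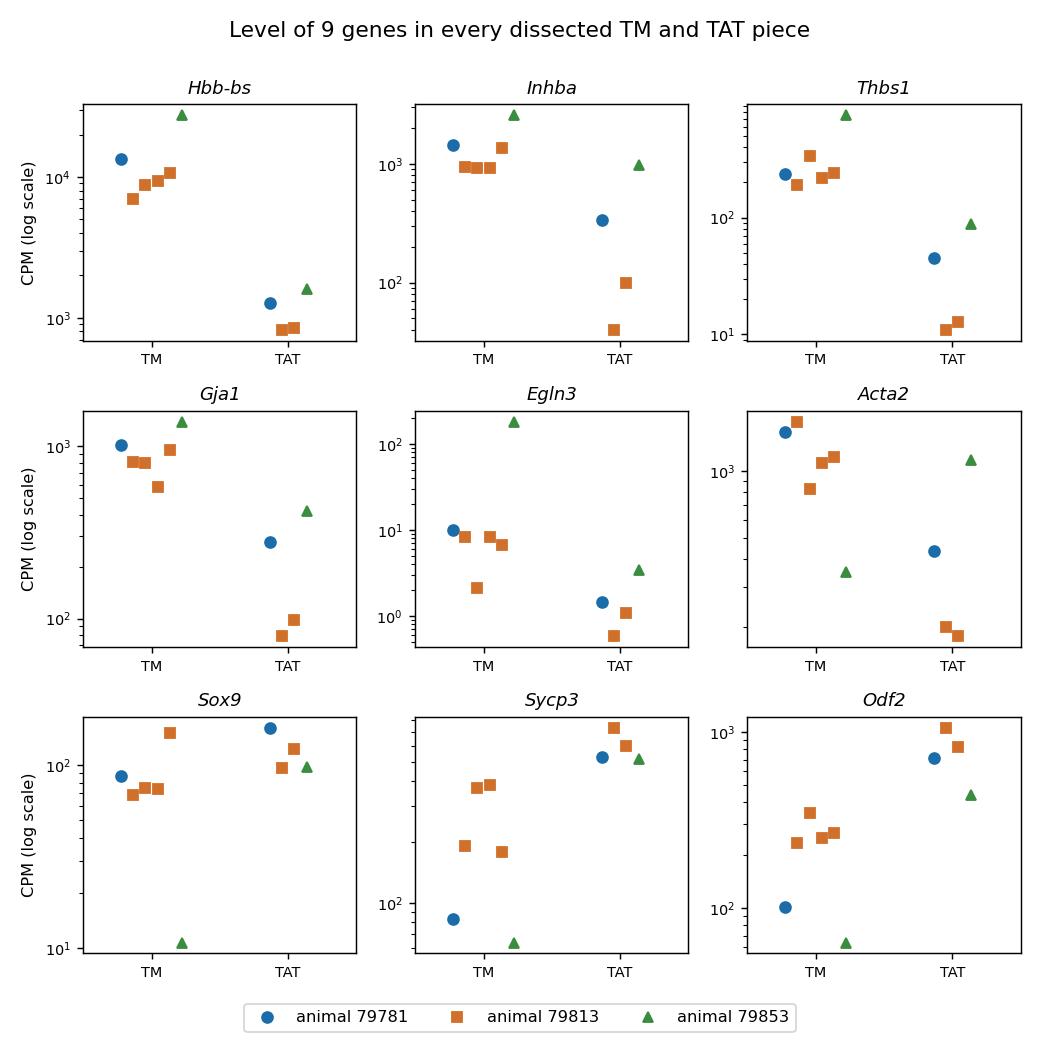
Points are single dissected pieces, 6 of TM and 4 of TAT, coloured and shaped by animal, and the vertical axis is CPM on a log scale. Every TM piece lay above every TAT piece for *Hbb-bs*, *Thbs1* and *Gja1*, and below for *Sycp3* and *Odf2*. *Acta2*, *Sox9* and *Egln3* show TM of animal 79853 apart from the other TM pieces.

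Meiotic and haploid germ cell genes were lower in TM. Of 27 tested genes of elongating spermatids all 27 were lower, as were 28 of 29 genes of round spermatids and 22 of 32 of spermatocytes, with medians of -2.50, -2.57 and -2.13. *Sycp3*, a component of the synaptonemal complex, had 82.7, 303 and 63.1 CPM in TM, against 522, 651 and 514 CPM in TAT (log2 fold change -2.18, SE 0.42). *Odf2*, of the sperm tail outer dense fibre, had 101, 294 and 63.4 CPM in TM and 712, 916 and 437 CPM in TAT. TM of animal 79813 kept the highest level of both genes among TM animals. *Crem*, a transcription factor of round spermatids, had a log2 fold change of -1.96 and *Ddx4*, a germ cell RNA helicase, one of -2.25. The germ cell isoforms of metabolic enzymes followed, with 17 of 19 lower. *Pgk2*, the phosphoglycerate kinase of the spermatid, had a log2 fold change of -2.59 and *Slc2a3*, a glucose transporter, one of -2.43. The higher member of that list was *Glud1*, the glutamate dehydrogenase that other tissues also express, which was not called without animal 79813 (adjusted p 0.197).

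Spermatogonial genes were mostly not called. Among 17 tested genes of undifferentiated spermatogonia, 1 was higher and 1 lower and the median was 0.16, beside -0.157 over all genes tested. Without animal 79853 the median of the list was -0.05. *Zbtb16* and *Sall4*, transcription factors of these cells, had log2 fold changes of -0.09 (SE 0.49) and 0.02 (SE 0.65). *Gfra1*, the GDNF receptor, had 1.08, 6.90 and 10.9 CPM in TM and 3.43, 5.29 and 3.69 CPM in TAT, and the groups overlapped. The higher member was *Foxo1*, which somatic cells also express, with 221, 270 and 369 CPM in TM and 62.0, 23.2 and 102 CPM in TAT. The lower member was the stem cell marker *Id4* (log2 fold change -2.0), with 1.28 to 6.12 CPM in TM pieces and 10.22 to 15.34 CPM in TAT pieces. Of 12 genes of differentiating spermatogonia, 2 were lower and none higher, a share near the 17.7% of all genes tested that were lower. The 12 genes named for the smallest log2 fold changes included *Spag16*, of the sperm axoneme, at -3.39, *Glipr1l1*, a sperm surface protein, at -3.56, and 7 genes known only by a clone or model name.

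Matrix and protease genes were higher in TM in part. Of 27 matrix protease and inhibitor genes, 8 were higher and none lower, and the median was 1.37 (5 higher without animal 79813 and 13 without animal 79853). *Serpine2*, a protease inhibitor of granulosa cells, had 1720, 1170 and 2070 CPM in TM and 443, 79.8 and 556 CPM in TAT. *Mmp14*, a membrane-bound collagenase, had a log2 fold change of 1.37. *Thbs1*, an adhesive glycoprotein that activates latent TGF beta, had 233, 263 and 748 CPM in TM and 44.6, 11.8 and 88.0 CPM in TAT (log2 fold change 3.16, SE 0.54). Of 36 basement membrane and matrix glycoprotein genes 9 were higher and 1, *Lamb3*, was lower (6 higher without animal 79813 and 24 without animal 79853), and of 25 collagens 2 were higher, *Col12a1* and *Col27a1*, a share near the 7.65% of all genes tested. Without animal 79853 *Lamb3* and *Col12a1* were not called (adjusted p 0.0562 and 0.0553), and without animal 79813 neither collagen was (adjusted p 0.115 for *Col12a1* and 0.183 for *Col27a1*).

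TM of animal 79853 stood apart from the 5 other TM pieces in its stromal and metabolic genes. Collagen genes summed to 1800 CPM in that piece and to 4500 to 5300 CPM in the other TM pieces. TAT of the same animal was also apart, at 4141 CPM against 1078 to 1867 CPM in the other TAT pieces. For myoid and smooth muscle genes it had 3491 CPM, against 882.7 to 1579 CPM in the other TAT pieces. Differences within this animal therefore hold both a low TM and a high TAT level. *Acta2*, smooth muscle actin, had 1470, 1230 and 348 CPM in TM and 433, 187 and 1110 CPM in TAT. Its fitted log2 fold change was 0.90 (adjusted p 0.421), and without animal 79853 it was 2.34 (adjusted p 0.00713). Without that animal, 17 of 24 genes of peritubular myoid and smooth muscle cells, 14 of 25 collagens and 10 of 29 vessel endothelium genes were higher, against 1, 2 and 1 with it, where 11.9% and 7.65% of all genes tested were higher. Within the animal, the median log2 difference of the collagen list was -0.71, beside 0.99 in animal 79781 and 1.79 in animal 79813. Its *Gata1*, a Sertoli cell factor, was at 0 CPM, against 14.6 CPM in TAT of that animal. Haemoglobin genes were also highest there.

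Genes induced by low oxygen were higher in TM for 9 of 20 tested members, with none lower and a median of 1.65, and the size rested on 1 animal. They summed to 3661 CPM in TM of animal 79853 and to 746 to 871.9 CPM in the other 5 TM pieces, against 577.1 to 743.3 CPM in the TAT pieces. *Egln3*, a prolyl hydroxylase that marks HIF alpha subunits for removal, had 9.90, 6.70 and 180 CPM in TM and 1.43, 0.842 and 3.42 CPM in TAT (log2 fold change 4.22, SE 1.09), and it was not called by limma-voom on 17 libraries without the block (adjusted p 0.0692). *Vegfa*, the vascular growth factor, had 6.47, 6.43 and 144 CPM in TM and 0.423, 1.47 and 3.91 CPM in TAT (log2 fold change 3.89, SE 0.82). Both genes were higher in TM in each animal. Without animal 79853 the log2 fold changes were 3.02 (adjusted p 0.0182) and 3.00 (adjusted p 0.0321), and the median of the list was 0.91, with 9 members higher and 2 lower. The median log2 difference within the animals was 0.63, 1.01 and 2.68 for animals 79781, 79813 and 79853.

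Glycolytic enzymes of somatic cells were higher for 8 of 17 tested genes and lower for 2, and TM of animal 79853 had the highest summed level. *Gapdh* had 371, 340 and 1510 CPM in TM and 166, 82.5 and 231 CPM in TAT (log2 fold change 2.03, SE 0.39), and *Aldoa*, aldolase A, a log2 fold change of 1.70. *Hk1* and *Pfkm*, of which germ cells have their own forms, were lower by log2 fold changes of -1.34 and -1.04, and *Pfkm* was not called without animal 79853 (adjusted p 0.108). *Nupr1*, a stress-induced chromatin protein, had 1160, 1020 and 6940 CPM in TM and 267, 67.1 and 410 CPM in TAT, and *Spp1*, osteopontin, 168, 157 and 1300 CPM in TM and 44.1, 17.7 and 46.9 CPM in TAT.

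**Figure D3:**
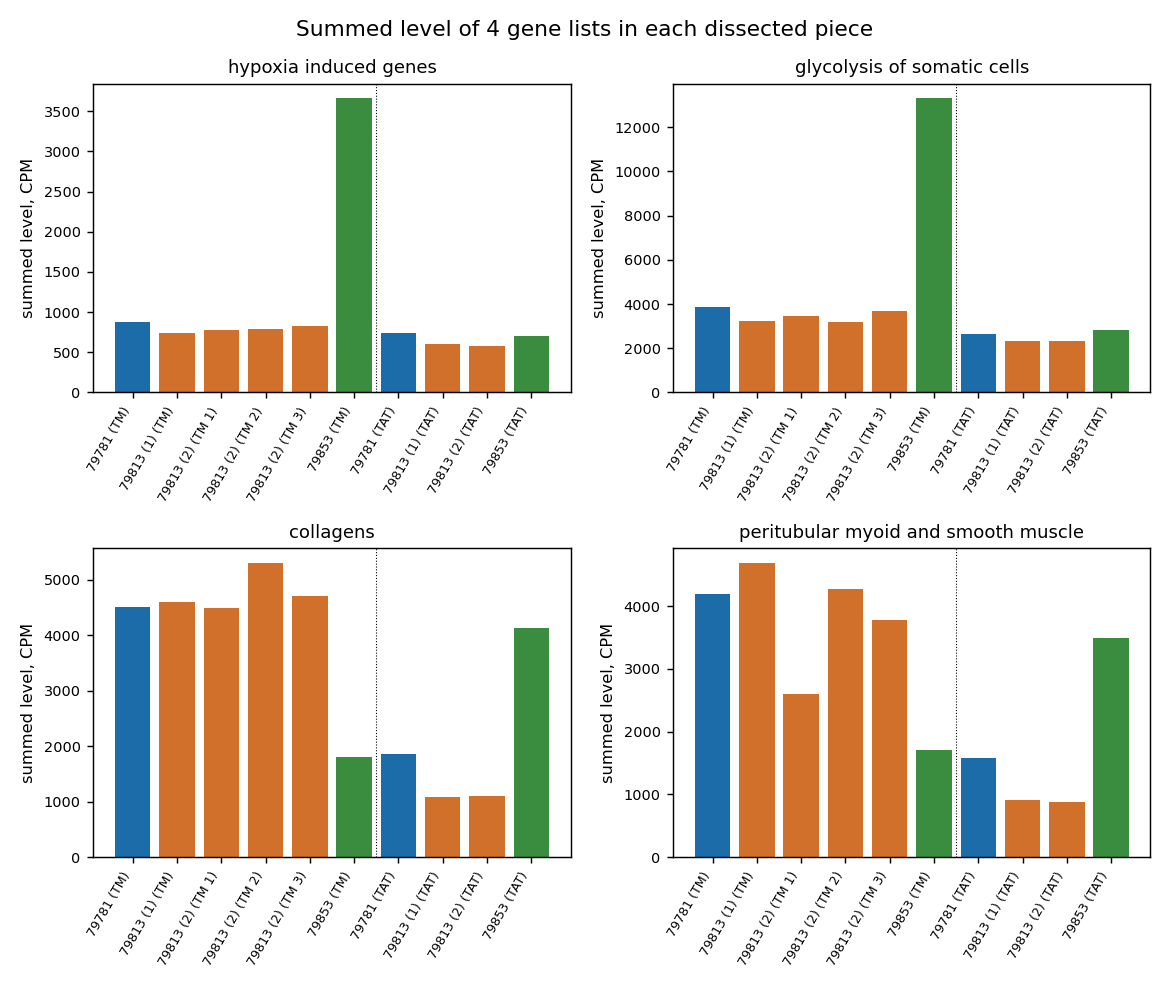
Bars are the summed CPM of the tested genes of 4 lists in each of the 6 TM and 4 TAT pieces, coloured by animal. TM of animal 79853 reached 3661 CPM for hypoxia induced genes, above every other piece, and 1800 CPM for collagens, below the other TM pieces.

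Part of the immediate early and inflammatory genes were higher in TM. Beside each count stands a share of 7.65% of all genes tested that were higher (3.09% without animal 79813 and 11.9% without animal 79853). Without 1 of these animals some counts of this paragraph were near that share. Of 23 immediate early genes 10 were higher (6 without animal 79813 and 9 without animal 79853) and 1, *Klf4*, which round spermatids also express, was lower, a call lost without animal 79813 (adjusted p 0.114). *Fos*, a subunit of the AP-1 factor, had 50.9, 41.0 and 76.8 CPM in TM and 9.35, 4.84 and 9.31 CPM in TAT (log2 fold change 2.82, SE 0.38), and *Jun*, its partner, had a log2 fold change of 1.58. *Ier3* had 15.5, 13.3 and 261 CPM in TM and 1.90, 2.03 and 7.44 CPM in TAT. Of 26 macrophage and monocyte genes 4 were higher (1 without animal 79813 and 10 without animal 79853) and 1, *Aif1*, a calcium-binding protein of macrophages, was lower. *Aif1* had 319 to 385 CPM in N pieces, 106 to 234 CPM in TAT pieces and 22.0 to 135 CPM in TM pieces. *Odf2*, of the sperm tail, fell in the same order, and which cells gave the *Aif1* reads was not tested. *Lyz2*, lysozyme of myeloid cells, had 830, 808 and 445 CPM in TM and 283, 156 and 214 CPM in TAT, while *Csf1r*, the receptor that defines macrophages, had a log2 fold change of 0.22 that was not called. *Ptprc*, found on all white blood cells, was 4.02 to 5.98 CPM in TM and 3.22 to 4.33 CPM in TAT. Among chemokines 4 of 21 were higher (1 without animal 79813 and 5 without animal 79853), led by *Cxcl1*, which draws neutrophils, with 5.39, 4.42 and 54.4 CPM in TM and 0, 0.497 and 1.16 CPM in TAT. Its log2 fold change was 4.82, and 4.57 without animal 79853, where *Cxcl1* was not called (adjusted p 0.0519), nor were *Ccl2* (adjusted p 0.122) and *Ccl7* (adjusted p 0.157). None of 14 tested T, B and NK cell genes was called. Markers of tissue beside the testis were mostly not called, with 1 higher and 1 lower of 9 genes of epididymis and duct epithelium and 1 lower of 7 adipocyte genes. Of all genes tested, 7.65% were higher and 17.7% lower. The adipocyte list summed to 92.8, 90.0 and 29.9 CPM in TM and 133.1, 116.1 and 105.7 CPM in TAT.

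Of 63 cytosolic ribosomal proteins 42 were higher and none lower, with a median of 0.76 (17 higher without animal 79813 and 59 without animal 79853), and all 63 log2 fold changes were above 0. The list summed to 73800, 77040 and 83310 CPM in TM and to 46880, 35820 and 59640 CPM in TAT. Of 30 mitotic genes 3 were higher and 6 lower with a median of -0.23, shares near the 7.65% and 17.7% of all genes (0 higher without animal 79813 and 8 without animal 79853). Of the mitotic genes, *Mcm3*, a replicative helicase subunit, and *Ccna2*, cyclin A2, were higher by log2 fold changes of 0.93 and 0.88. Of 18 genes of D cyclins, kinases and inhibitors 5 were higher and 2 lower, with a median of 0.09. *Cdk4* and *Cdk6*, the kinases of D cyclins, were higher by 1.35 and 1.17. The kinase inhibitors *Cdkn1b* and *Cdkn1a*, the latter chosen after its values were seen, were higher by 1.39 and 1.42, and the inhibitor *Cdkn2d* was lower at -1.10. Without animal 79813 *Mcm3*, *Ccna2*, *Cdkn1b* and *Cdkn1a* were not called (adjusted p 0.0599, 0.157, 0.0635 and 0.0778). *Cdc20* and *Aurka*, which act in mitosis and meiosis, had log2 fold changes of -1.03 and -1.54. *Ccnd2*, a D cyclin, had 1150, 1020 and 1110 CPM in TM and 844, 351 and 884 CPM in TAT and was not called (log2 fold change 0.72, adjusted p 0.104). By the paper, undifferentiated spermatogonia express it most in the adult testis, and endothelial, Leydig and peritubular myoid cells also make it.

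Other signals moved by few genes. For each list the background is the 7.65% of all genes tested that were higher (3.09% without animal 79813 and 11.9% without animal 79853). Some of the counts below were near it. Of 26 interferon induced genes 4 were higher (2 without animal 79813 and 4 without animal 79853) and none lower, and of 15 MHC genes 5 were higher and 1, *H2-DMb1*, which helps load class II peptides, was lower, a call lost without animal 79853 (adjusted p 0.153). *B2m*, the light chain of class I, had 459, 481 and 450 CPM in TM and 199, 143 and 254 CPM in TAT. The unfolded protein response list had 5 of 23 genes higher (1 without animal 79813 and 3 without animal 79853) and 5 lower, beside 7.65% and 17.7% of all genes tested. *Pdia4*, a chaperone of the endoplasmic reticulum, had a log2 fold change of 1.42 and *Sdf2l1*, another, one of -1.41. In the WNT and RSPO list 3 of 23 genes were higher (1 without animal 79813 and 7 without animal 79853) and 1 was lower, *Lef1*, a nuclear partner of beta-catenin, with a log2 fold change of -2.55 and *Wnt4*, a ligand of the ovary, at 1.5. In the Notch list 3 of 19 genes were higher (1 without animal 79813 and 5 without animal 79853) and 1 was lower, *Dll3*, an inhibitory ligand, at -2.62, with *Hey2* and *Heyl*, Notch target genes, at 2.63 and 1.74, of which *Heyl* was not called without animal 79813 (adjusted p 0.0734). *Lef1* and *Dll3* had 96.8 to 126 and 80.8 to 91.5 CPM in the N pieces, and which cells gave their reads was not tested. *Igf1*, a growth factor, had 167, 138 and 174 CPM in TM and 68.9, 34.4 and 88.8 CPM in TAT (log2 fold change 1.37, SE 0.29). Of 49 tested genes that the study names for these regions, 3 were higher and 4 lower (9 and 6 without animal 79853), and since they were chosen there on these samples the count is not independent evidence.

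The 4 tumours of animal 79813 could be set each against the TAT piece of its own testis, with no test. The genes called lower had medians of -1.78 in the tumour of testis 1 and -1.32, -1.34 and -1.60 in the 3 tumours of testis 2, and those called higher had 1.62 and 1.45, 1.34 and 1.56. The medians for the genes called lower were -2.39 in animal 79781 and -2.79 in animal 79853, beyond all 4 tumours of animal 79813. For granulosa cell genes the 4 medians were 3.36, 3.22, 3.20 and 3.53, beside 1.60 in animal 79781 and 1.58 in animal 79853, while the TAT pieces of animal 79813 summed to 486 and 611.4 CPM for that list and those of the other animals to 1531 and 2734 CPM.

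**Figure D4:**
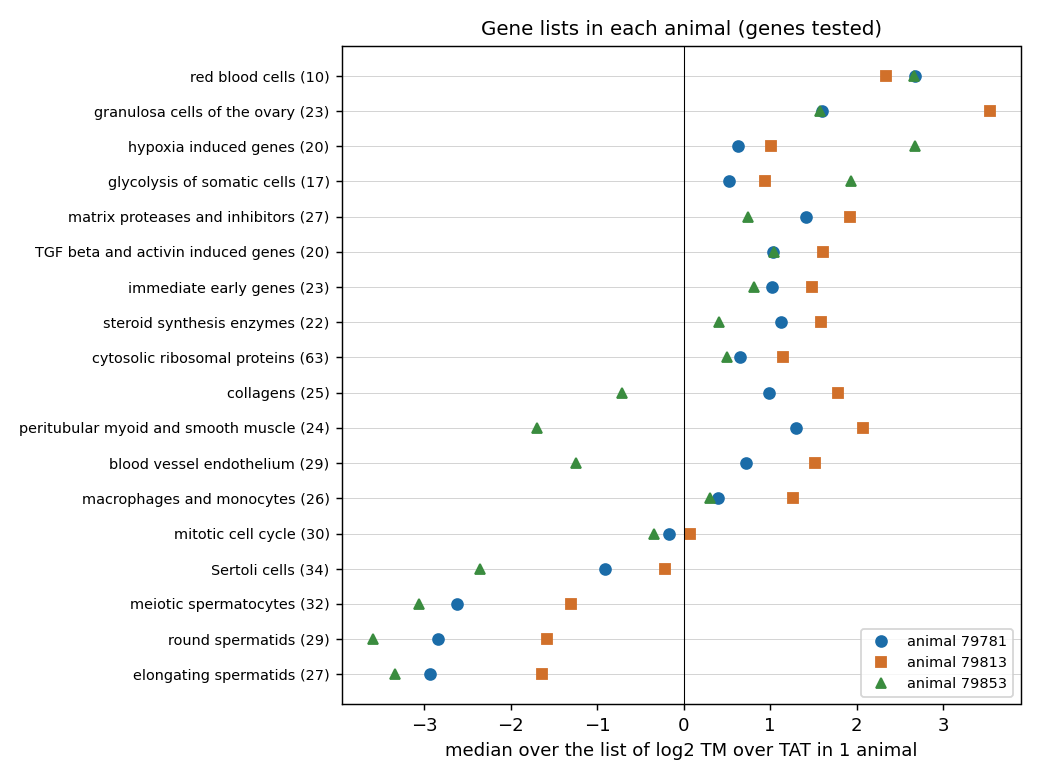
Each point is the median, over the tested genes of a list, of log2 TM over TAT within 1 animal, with CPM and a prior count of 2. The 3 animals had the same sign for most lists shown, and animal 79853 lay below 0 for collagens, myoid and vessel endothelium genes where the other animals lay above.

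Genes on chromosome X were higher in TM for 112 of 814 tested (13.8%) and lower for 90 (11.1%), with a median of 0.13. Of 120 on chromosome Y 2 were higher (1.67%) and 15 lower (12.5%), with a median of -2.63. Of all genes tested, 7.65% were higher and 17.7% lower, so the share called lower on chromosome Y was below that of all genes despite its median.

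Promoter windows of 250 bases before to 50 after the start were taken from RefSeq (GRCm38.p6) for 13190 of the tested genes and searched on both strands. The cAMP element TGACGTCA was in 2.54% of windows of genes called higher, 3.45% of those called lower and 2.92% of all. The AP-1 site TGAGTCA was in 3.81%, 3.54% and 3.84%, and the NR5A1 site TCAAGGTCA in 0.363%, 0.699% and 0.296%. The HIF core ACGTG, which is also part of the E-box CACGTG and was added after the values were seen, was in 26.6%, 22.1% and 23.6%. A match is a description and not a site in use. Windows of glycolytic genes called in both directions held the HIF core, such as *Pgam1*, which was higher, and *Pfkm*, which was lower. The window of *Gja1*, a gene named above that holds an AP-1 match, is shown with the match in capitals, and that of *Pgam1*, a glycolytic enzyme with log2 fold change 1.41, with the HIF core in capitals (chr10:56377050-56377349, strand +, and chr19:41911621-41911920, strand +).
Gja1: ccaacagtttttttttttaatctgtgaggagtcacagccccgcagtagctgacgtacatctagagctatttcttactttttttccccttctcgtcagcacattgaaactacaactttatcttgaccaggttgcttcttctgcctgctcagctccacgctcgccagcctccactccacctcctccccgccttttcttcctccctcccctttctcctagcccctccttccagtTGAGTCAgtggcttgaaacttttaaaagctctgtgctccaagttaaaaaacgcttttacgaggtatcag
Pgam1: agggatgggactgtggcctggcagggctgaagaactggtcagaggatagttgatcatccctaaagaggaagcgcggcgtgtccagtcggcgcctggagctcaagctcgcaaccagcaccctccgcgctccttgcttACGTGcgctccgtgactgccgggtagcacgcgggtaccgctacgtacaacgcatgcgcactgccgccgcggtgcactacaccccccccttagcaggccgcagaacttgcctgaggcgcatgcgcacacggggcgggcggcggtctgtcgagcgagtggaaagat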

How the data were processed

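RNA from the pieces was reverse transcribed from the 3' end with sample-indexed primers carrying molecular identifiers, and tagmented libraries were run on a NextSeq 2000. The authors mapped reads with STAR 2.6.1d to GRCm38 and deposited estimated counts per gene (23362 genes), by Salmon per the paper and featureCounts of Subread 2.0.1 per the processing notes. Annotation release and removal of duplicate reads were not given in the sources used here.

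Counts of each animal were summed over the pieces of a region, then rounded. TM was compared with TAT in 9 KO libraries with edgeR 4.0.16 in R 4.3.3 (TMM, filterByExpr, glmQLFit, glmQLFTest, Benjamini-Hochberg) blocked by animal, because the labels tie both regions to each animal. Deviations from region means correlated by 0.0922 on average within an animal (0.0164 to 0.350) and -0.0458 between animals. Each gene was centred on the mean of 3 animals per region, so the negative value largely follows from the first and is not separate evidence of the pairing. No 2 libraries were copies. Differences within animals use log2 CPM (prior count 2) and were not tested, as 3 pairs cannot give an exact paired p below 0.25.

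Named genes were the 12 called with the largest and the 12 with the smallest log2 fold change (mean of at least 10 CPM, no overlap), up to 4 of each list with the smallest p, called members against their list and genes the study names. Members, lists and tests were chosen with earlier results of these data known. Of 45 lists, levels are sums of tested genes. Lists share members, such as *Inhba*, *Inhbb* and *Fst* in the granulosa cell and activin lists and *Loxl2* in the hypoxia and matrix glycoprotein lists. Symbols that stand for more than 1 gene (29) used the one with the most counts. Alternatives are in the closing section, among them DESeq2, RLE factors and limma-voom. Some genes are not reported here.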

Additional observations from a re-analysis of the deposited data

Results flagged for a closer look

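The summed CPM of 45 lists was checked for a piece far from the others, separately in the 6 TM and 4 TAT pieces, which share animals. Such a check flags about 1 in 20 groups by chance where the values are independent. Here 4 of the 6 TM pieces come from animal 79813 and some lists share genes, so that rate does not hold. It marked 12 lists in TM, each for the piece of animal 79853. That piece was high at 53300 CPM for red blood cell genes (others 15000 to 28500), 3660 CPM for hypoxia induced genes (others 746 to 872), 13300 CPM for somatic glycolysis (others 3190 to 3850), 6720 CPM for the unfolded protein response (others 4310 to 4670) and 1320 CPM for immediate early genes (others 649 to 828). It was also high at 3770 CPM for the activin and inhibin pathway (others 1380 to 2130), 1760 CPM for TGF beta and activin induced genes (others 818 to 1020), 1600 CPM for the BMP pathway (others 795 to 989) and 56.4 CPM for neutrophils and mast cells (others 14.8 to 29.4). It was low at 1800 CPM for collagens (others 4500 to 5300), 462 CPM for the WNT and RSPO pathway (others 518 to 550) and 15.4 CPM for lymphatic endothelium (others 60.9 to 78.4). In TAT, the piece of the same animal was high at 459 CPM for chemokines (others 138 to 189).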

How the results depend on the processing

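With no replicate block, 1205 genes were higher and 2608 lower, of which 3639 were called in both fits. In a fit of only the 6 summed libraries (3 TM and 3 TAT, 1 of each per animal), 2163 were higher and 2704 lower. Each animal left out in turn gave 0 to 2405 genes higher and 0 to 3350 lower, the 0 being without animal 79781. With dissected pieces as libraries 3091 were higher, limma-voom on 17 libraries gave 3338 higher and 5346 lower, and DESeq2 3104 higher. RLE factors gave 2209 higher and 3720 lower. A fold above 4 left 251 higher and 1949 lower. The median log2 fold change of myoid and smooth muscle genes was -0.02 to 1.85 with 1 animal left out, that of basement membrane and matrix glycoproteins -0.04 to 1.43 and that of epididymis and duct epithelium -1.77 to 0.17, with the change of sign without animal 79813 for the first 2 lists and without animal 79853 for the third. In all, 12 of 45 list medians changed sign under some alternative, among them vessel endothelium (-0.28 without animal 79813), undifferentiated spermatogonia (-0.05 without animal 79853), differentiating spermatogonia (0.13 without animal 79781) and D cyclins, kinases and inhibitors (-0.10 without animal 79813). Of 234 named genes, 159 were called with all animals. All 159 lost the call without animal 79781, while 38 lost it without the block, 38 without animal 79813 and 18 without animal 79853. No named gene that was called with all animals changed direction. Every called gene had the same direction in the 3 animals, so leaving out 1 could hardly have reversed it. *Lsp1* and *Cyp17a1*, not called with all animals, had log2 fold changes of 1.27 and 1.57 without animal 79853, where they were called, and of -0.45 and -0.34 without animal 79813. The causes of these differences were not tested. With 3 animals and a smallest adjusted p of 0.0164, single genes of large spread are not resolved.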
